A study of Mus musculus with 11 samples.

Results

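The expression of immunoglobulin-type cell adhesion molecules was examined in a murine model of melanoma progression. The listed genes were Alcam, Nrcam, Mcam, L1cam, Bcam, Cadm1, Icam1, Vcam1 and Ncam1, given as a fixed list of family members and described where they have a row in the expression tables. A row was found for 7 of the 9 among 14272 genes in all, and Icam1 and Vcam1 were not analysed here. RNA sequencing was available for 11 libraries of 4 cell lines. The melan-a line (replicates 2 and 3) consists of nonmalignant epithelial melanocytes of the C57BL/6 strain. The other lines descend from melan-a by repeated cycles of detachment and re-adhesion and have 3 libraries each: 4C (pre-malignant, mesenchymal-like), 4C11- (melanoma, mesenchymal-like, non-metastatic) and 4C11+ (melanoma, epithelial, metastatic). Melan-a alone was grown with 200 nM PMA, a phorbol ester that activates protein kinase C, so that culture with PMA and the identity of melan-a cannot be told apart. Each stage is a single cell line and its replicates are cultures, so that p-values measure the spread between cultures and not between independently derived lines. In such bulk samples, fewer expressing cells and less RNA per cell cannot be told apart.

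Cell adhesion molecules of this superfamily carry immunoglobulin domains outside the cell, mostly a single membrane span, and short tails that bind ankyrins, spectrin-binding or PDZ-domain proteins. They bind copies of themselves, other family members, integrins or laminins, and many are cut from the cell surface by metalloproteases. In the melanocyte lineage, MCAM (CD146) and ALCAM (CD166) are known as markers whose levels rise in advanced human melanoma, and L1CAM has been linked to invasion. NCAM, CADM1 and NrCAM are best known from neurons, where they guide axons and organize synapses and nodes of Ranvier.

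The deposited values are log2 CPM, in principle the reads of a gene scaled to a common library total. They share the same highest value in all 11 libraries, so that a further normalization is likely. The value at 0 reads differed between libraries, as with -3.44 in 4C replicate 1 and -2.44 in 4C11+ replicate 1. The nominal depth read from the steps of the lowest values was between 3.50 and 7.42 M reads per library and is not a measured depth. Of 9 melanocyte markers 8 had a row, and their summed level was 10.9 to 13.1 on the log2 CPM scale in melan-a and 13.4 to 13.7 in 4C11+, but 1.85 to 2.90 in 4C and 1.64 to 3.53 in 4C11-. Mitf, the regulator of the melanocyte lineage, averaged 7.85 in melan-a and 7.12 in 4C11+ but 0.20 in 4C and -0.09 in 4C11-, so that the summed markers and Mitf went against a melanocyte label in these 2 lines. Tyr, which encodes tyrosinase, had at most 3 reads in every 4C and 4C11- library and was also low in melan-a (-0.25 and 1.29), against a mean of 8.52 in 4C11+. Pmel too was lower in melan-a (mean 2.68) than in 4C11+ (11.91), whereas Kit was higher in melan-a (6.55 against 3.03). These 3 markers were called by limma between the 2 epithelial lines, and the other 5 with a row were not. The fibroblast markers with a row (3 of 7) went the other way, with sums of 10.7 to 11.1 in 4C and 4C11- and of 3.05 to 6.42 in melan-a and 4C11+. Markers of other cell types had few rows: 1 of 7 endothelial, 2 of 7 leukocyte, 1 of 7 keratinocyte and 3 of 7 glial and neuronal genes. The endothelial gene was Cdh5 (VE-cadherin), at 6.54 to 7.43 in 4C11- and at no more than 3 reads in melan-a and 4C11+. Summed leukocyte markers ranged from 1.86 to 5.27 over all lines, with 0 genes called by limma and 0 at an unadjusted p under 0.05, the keratinocyte gene Krt10 was lower in 4C11+ than in 4C11- by a log2 difference of -3.09, and the glial and neuronal sum was 7.56 to 8.55 in melan-a and 4C11+ against 4.49 to 6.45 in 4C and 4C11-. The part of these markers in the results below was not tested.

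Nrcam and L1cam, the L1-family members of the list, were much lower in the mesenchymal-like than in the epithelial lines, and Nrcam was nearly absent there. Both encode ankyrin-binding adhesion molecules of growing axons. Nrcam reached 6.21 and 8.09 log2 CPM in melan-a and 7.84, 7.61 and 8.06 in 4C11+. In 4C it had 0, 2 and 0 reads (-3.44, -2.01 and -3.44 log2 CPM), and in 4C11- it had 0 reads in all 3 libraries. The epithelial and mesenchymal-like libraries thus lay far apart and did not overlap.

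Set against a floor of 3 reads per library, Nrcam in 4C11- was at least 423-fold lower than in melan-a and at least 680-fold lower than in 4C11+. For 4C, whose 3 libraries held 2 reads in all, the reads were taken over the nominal depth. The ratio was then 1371 (95% counting interval 380 to 11325) against melan-a and 2205 (610 to 18205) against 4C11+. These ratios set normalized levels against reads that were not normalized, so that they and their intervals are approximate. With the normalized 4C values the ratios were 1109 and 1783. Adjusted p-values of the limma fits were 5.95e-07 for 4C against melan-a and 7.74e-08 for 4C11+ against 4C11-. Nrcam in 4C11+ exceeded its melan-a level by a log2 difference of 0.68 ± 0.61 (SE), which did not pass the test (adjusted p = 0.481), and its melan-a libraries were further apart than those of 4C11+ (SD 1.33 against 0.23).

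L1cam was likewise higher in both epithelial than in both mesenchymal-like lines. It was 6.42 and 5.70 log2 CPM in melan-a and 3.50, 3.32 and 4.07 in 4C11+. In 4C it had 1, 1 and 0 reads, and in 4C11- 10, 3 and 2 reads (1.01, -2.01 and -2.44 log2 CPM). Hence no library of the mesenchymal-like lines reached the lowest epithelial library. Taken over the nominal depth, the L1cam level in 4C (2 reads in all) was below that of melan-a by a ratio of 644 (178 to 5316). Below that of 4C11+ it was by a ratio of 119 (33.0 to 984), both approximate as for Nrcam. With the normalized 4C values the ratios were 457 and 84.6. In 4C11+ it exceeded 4C11- by a log2 difference of 4.78 ± 0.78 (adjusted p = 0.000751) and differed from melan-a by -2.43 ± 0.87, which missed the threshold (adjusted p = 0.0827). The last difference passed without 4C11- replicate 1 (adjusted p = 0.00822) and with only the lines compared (adjusted p = 0.0122). Over the 11 libraries the Pearson correlation of L1cam with Nrcam was 0.91, the highest among the 21 pairs of members. All 11 points share the 4 lines, and the coefficient is given as a description.

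**Figure D1:**
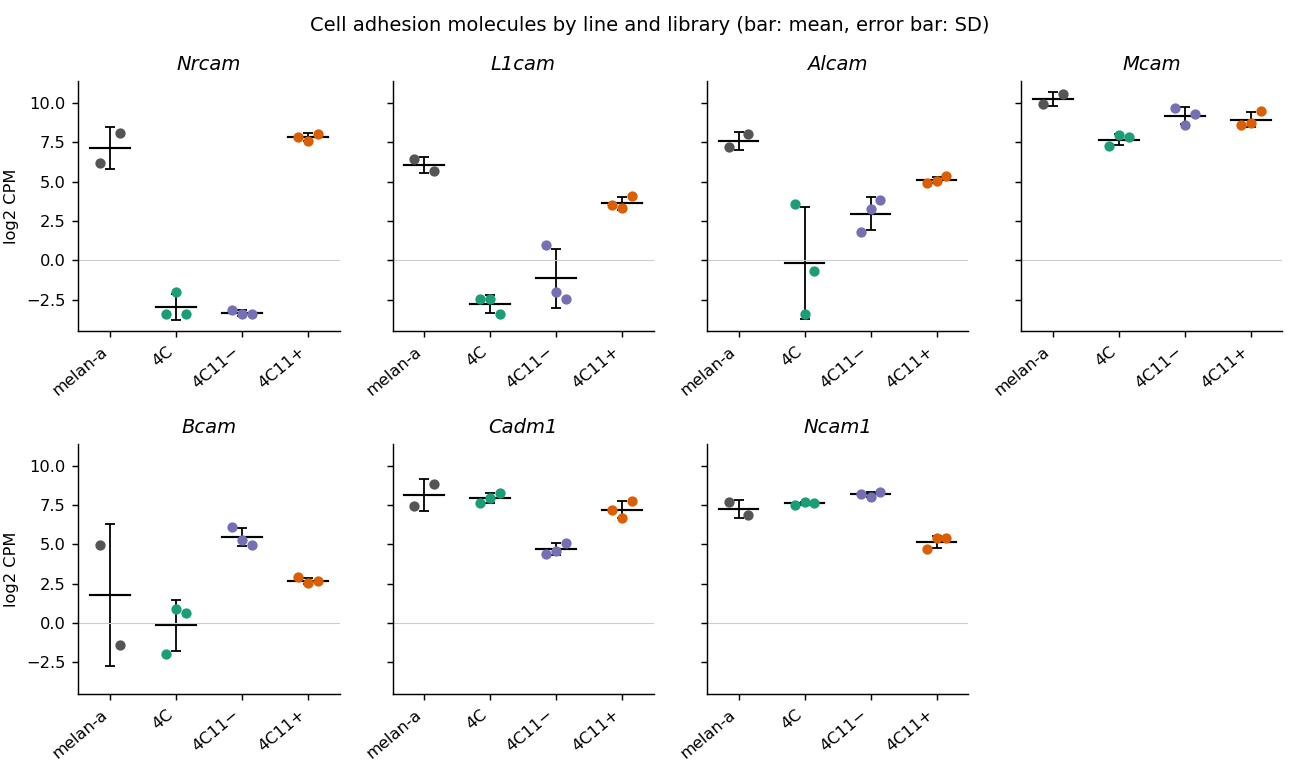
Level of each cell adhesion molecule (log2 CPM, y axis) in the 11 libraries of the 4 lines (x axis), with 1 point per library and the mean and SD per line. Nrcam and L1cam separated melan-a and 4C11+ from 4C and 4C11-, Cadm1 was lowest in 4C11- and Ncam1 was lowest in 4C11+.

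The stretches before the RefSeq transcription starts of these L1-family genes are shown because both genes were low in the same lines. They are the 250 bases upstream of the start in build GRCm38.p6, 5′ to 3′ on the gene's strand, with CpG dinucleotides in capitals. Nrcam lies on the plus strand of chromosome 12 and its window is chr12:44328635-44328884. L1cam lies on the minus strand of the X chromosome and the window of the more 3′ of its 2 listed starts is chrX:73880791-73881040.
Nrcam: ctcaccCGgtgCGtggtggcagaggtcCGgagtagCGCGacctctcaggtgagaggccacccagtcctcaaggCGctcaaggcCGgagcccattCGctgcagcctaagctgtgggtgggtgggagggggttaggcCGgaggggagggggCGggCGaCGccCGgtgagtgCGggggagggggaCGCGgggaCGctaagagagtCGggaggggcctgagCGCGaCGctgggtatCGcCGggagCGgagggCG
L1cam: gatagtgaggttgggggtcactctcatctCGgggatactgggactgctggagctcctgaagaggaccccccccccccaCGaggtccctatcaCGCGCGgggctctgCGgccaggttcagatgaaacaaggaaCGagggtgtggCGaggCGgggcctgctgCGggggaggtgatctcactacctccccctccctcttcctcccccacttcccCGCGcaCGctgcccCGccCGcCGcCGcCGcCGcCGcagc
The Nrcam window held 25 CpG dinucleotides at a GC content of 72.4%, and the L1cam window held 20 at 69.6%. The window of the other L1cam start, chrX:73880835-73881084, overlaps the printed one and held 12 at 63.2%. Among 32851 RefSeq promoter windows of the same length, whose median was 6 CpG dinucleotides, 10.7% held at least 25, 17.9% at least 20 and 33.5% at least 12. The windows of Mcam (chr9:44134408-44134657), which was expressed in every library, of Alcam (chr16:52453082-52453331) and of Bcam (chr7:19770533-19770782) held 25, 22 and 22.

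Motif letters were searched on both strands of the upstream windows. None of the upstream windows of Nrcam, L1cam, Mcam, Alcam and Bcam held the NF-kB letters GGNNNTTCC (15.7% of all windows held them), the MITF E-box CATGTG (12.3%), the E-box CACGTG (6.02%), the SOX letters AACAAT (9.42%) or the AP-1 letters TGANTCA (6.75%). The absence says only that these letters are not in them. The Icam1 window held the NF-kB letters and the MITF E-box, and Cadm1, Ncam1 and Vcam1 had no listed window. The bases just after the listed Icam1 start were not found in the annotated Icam1 transcripts, unlike those of the other windows. The place of the Icam1 window is therefore unsure.

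Alcam, Mcam and Bcam form the group of adhesion molecules with melanoma or laminin ties. Alcam encodes a protein that binds itself and CD6. It measured 7.20 and 8.003 log2 CPM in melan-a and 4.93, 5.04 and 5.35 in 4C11+. It was lower in both mesenchymal-like lines, with 3.60, -3.44 (0 reads) and -0.70 (4 reads) in 4C and 1.83 (18 reads), 3.25 and 3.86 in 4C11-. The 4C libraries disagreed strongly with each other (SD 3.55), whereas those of 4C11+ were close together (SD 0.22).

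The Alcam difference of 4C from melan-a was -7.78 ± 1.44 (adjusted p = 0.00323), and without 4C replicate 1 it was -9.67. From 4C to 4C11+ it was 5.29 ± 1.29 higher (adjusted p = 0.00878), or 7.18 without that library. The order of the line means was melan-a, 4C11+, 4C11-, 4C, and no pair of neighbours in this order passed the test. Without 4C replicate 1 the steps from 4C to 4C11- (5.05, adjusted p = 0.0103) and from 4C11- to 4C11+ (2.13, adjusted p = 0.0406) both passed. The difference of 4C11- from melan-a (-4.63, adjusted p = 0.0558) passed without 4C replicate 1 (adjusted p = 0.00286) or 4C replicate 2 (adjusted p = 0.0121). In limma fits of only the lines compared, 4C11+ differed from melan-a (-2.50, adjusted p = 0.00548) and from 4C11- (2.13, adjusted p = 0.0159). There 4C11- also differed from melan-a (adjusted p = 0.00982), whereas the step from 4C to 4C11- did not pass.

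Mcam, which encodes the melanoma cell adhesion molecule that binds laminin α4, galectins and WNT5A, was the member with the highest level per length of transcript in every line. Its mean per kilobase of exon was 8.49 log2 CPM for melan-a, 5.94 for 4C, 7.46 for 4C11- and 7.19 for 4C11+. Before the length correction it was 9.93 and 10.55 in melan-a, 7.28, 7.95 and 7.82 in 4C, 9.71, 8.62 and 9.28 in 4C11-, and 8.58, 8.74 and 9.48 in 4C11+. The non-tumorigenic lines thus held the highest and the lowest level, and the tumorigenic lines lay in between.

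Mcam fell from melan-a to 4C by 2.56 on the log2 scale (SE 0.37, a 5.88-fold decrease, adjusted p = 0.000538). It was 1.52 ± 0.33 higher in 4C11- than in 4C, where the test was barely passed (adjusted p = 0.0443) and was missed when any 1 of 7 libraries (all but 4C11- replicate 2 and 4C11+ replicate 3 of the derived lines) was left out, with adjusted p between 0.0682 and 0.125. In 4C11+ it was 1.25 ± 0.33 higher than in 4C (adjusted p = 0.0133), which was lost without 4C11+ replicate 3 (adjusted p = 0.0518). Against melan-a, the difference of 4C11+ was -1.31 ± 0.37 (adjusted p = 0.0333), a call lost without either melan-a library, 4C11+ replicate 1 or 4C11+ replicate 2 (adjusted p between 0.0543 and 0.158). The tumorigenic lines differed from each other by -0.27 ± 0.33, within the spread of the replicates. That of 4C11- from melan-a (-1.04, adjusted p = 0.0929) passed without 4C11- replicate 1 (-1.29, adjusted p = 0.0388). Gm10687 overlaps Mcam on the opposite strand and had mean levels of 1.59 to 4.25 log2 CPM, highest in melan-a.

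Bcam encodes the Lutheran glycoprotein, a receptor for laminin α5. Its melan-a libraries contradicted each other, with 4.97 log2 CPM in replicate 2 and a single read (-1.42) in replicate 3. It was low in 4C with 2, 14 and 9 reads (-1.98, 0.93 and 0.63), highest in 4C11- with 6.11, 5.29 and 4.98, and again lower in 4C11+ with 31, 22 and 34 reads (2.91, 2.52 and 2.67). The libraries of 4C, 4C11- and 4C11+ did not overlap with one another. No comparison of Bcam passed the test with all libraries, as 4C11- against 4C gave 5.60 ± 1.27 (adjusted p = 0.0521), and 4C11+ against 4C11- gave -2.76 ± 1.27 (adjusted p = 0.121). Without melan-a replicate 2 the adjusted p of these was 0.00158 and 0.0097, and without melan-a replicate 3 it was 0.00137 and 0.00882. The sign of the melan-a comparisons turned on the same libraries, as the difference of 4C from melan-a was -5.11 without replicate 3 and 1.28 without replicate 2, against -1.92 with both. That of 4C11+ from melan-a likewise was -2.27 without replicate 3 and 4.12 without replicate 2.

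Ncam1 was lowest in 4C11+ and Cadm1 was lowest in 4C11-, each called against every other line. Ncam1, which encodes the neural cell adhesion molecule (CD56), was 7.67 and 6.86 log2 CPM in melan-a, 7.53, 7.67 and 7.60 in 4C, and 8.22, 7.99 and 8.31 in 4C11-. In 4C11+ it was 4.74, 5.39 and 5.40, so that each 4C11+ library lay below each of the other 8. The 4C11+ level was 7.99-fold lower than in 4C11- (log2 difference -2.998 ± 0.26, adjusted p = 5.45e-06), 5.37-fold lower than in 4C (adjusted p = 2.68e-05) and 4.26-fold lower than in melan-a (adjusted p = 0.000652). The other lines followed the order 4C11-, 4C, melan-a, whose neighbours did not pass the test against each other (0.57 ± 0.26 and 0.33 ± 0.29). Without melan-a replicate 2, the difference of 4C11- from melan-a passed as well (1.31, adjusted p = 0.0174, against 0.91 and 0.060 with all libraries).

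Cadm1 encodes an adhesion molecule known as a tumour suppressor in several carcinomas. Its log2 CPM values were 7.43 and 8.85 in melan-a, 7.66, 7.95 and 8.25 in 4C, and 7.16, 6.68 and 7.76 in 4C11+. In 4C11- it was 4.41, 4.57 and 5.11, below every other library. Cadm1 fell by 3.25 on the log2 scale from 4C to 4C11- (SE 0.38, 9.52-fold, adjusted p = 0.000988), and was 10.9-fold lower in 4C11- than in melan-a (adjusted p = 0.000183). It was 2.50 ± 0.38 higher in 4C11+ than in 4C11- (5.66-fold, adjusted p = 0.000454). Among melan-a, 4C and 4C11+ no neighbours differed beyond the spread (0.19 ± 0.43 and 0.75 ± 0.38). Without melan-a replicate 2, 4C11+ was lower than melan-a (-1.65, adjusted p = 0.0384, against -0.94 and 0.16 with all libraries). The genes Gm47197 and Gm47198 overlap Cadm1 and Gm11149 overlaps Ncam1, each with a mean of at most 0.99 log2 CPM in every line, and Arhgap4, which overlaps L1cam, had at most 0.97.

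Counted over the 7 members, each step of the model was compared with all genes tested. From melan-a to 4C, 4 members were lower (Alcam, Mcam, L1cam and Nrcam) and 0 higher in limma (0 also at an unadjusted p under 0.05), while 7.55% of all genes were called lower and 7.64% higher. At that unadjusted threshold 3944 of 14272 genes differed in either direction. From 4C to 4C11-, 1 was higher (Mcam) and 1 lower (Cadm1), against 1.26% and 0.406% of all genes. From 4C11- to 4C11+, 3 were higher (Cadm1, L1cam and Nrcam) and 1 lower (Ncam1), against 15.6% and 15.4%. The median difference of the members in these steps was -2.56, 1.52 and 2.13 on the log2 scale, and that of all genes was -0.06, 0.01 and 0.12.

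The comparisons over longer distances gave the following counts. In 4C11+ against melan-a, 2 members were lower (Mcam and Ncam1) and 0 higher by limma (0 at an unadjusted p under 0.05), with 7.52% of all genes lower and 8.39% higher. In 4C11- against melan-a, 3 were lower (L1cam, Nrcam and Cadm1) and 0 higher by limma (2 at an unadjusted p under 0.05, Bcam and Ncam1), with 6.05% lower and 7.55% higher. At the unadjusted threshold, 4347 of 14272 genes differed in either direction in 4C11+ against melan-a and 3732 in 4C11- against melan-a. In 4C11+ against 4C, 4 were higher (Alcam, Mcam, L1cam and Nrcam) and 1 was lower (Ncam1), with 17.1% higher and 14.6% lower. The median member difference was -1.31, -3.44 and 2.84 in these comparisons, beside 0.03, -0.07 and 0.08 for all genes. These comparisons share lines with each other and are not independent.

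Pooling the lines by phenotype, the mesenchymal-like lines (4C and 4C11-) were compared with the epithelial lines (melan-a and 4C11+). In the mesenchymal-like lines 5 members were lower (Alcam, Mcam, L1cam, Nrcam and Cadm1) and 1 was higher (Ncam1), where 15.3% of all genes were called lower and 14.3% higher. The median member difference was -1.35, beside -0.09 for all genes. The libraries did not overlap between the phenotypes for Nrcam, L1cam and Alcam (log2 difference -4.96 ± 0.97 for Alcam). The share of all genes without such overlap is not given here, so that the separation of these members is a description only. The libraries did overlap for Mcam (-1.14 ± 0.25), Cadm1 (-1.35 ± 0.29) and Ncam1 (1.67 ± 0.19), although the means passed the test (adjusted p = 0.00441, 0.00388 and 4.49e-05). Bcam differed by 0.42 ± 0.95 and was not called with all libraries, but was higher in the mesenchymal-like lines without melan-a replicate 2 (2.02, adjusted p = 0.0252).

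**Figure D2:**
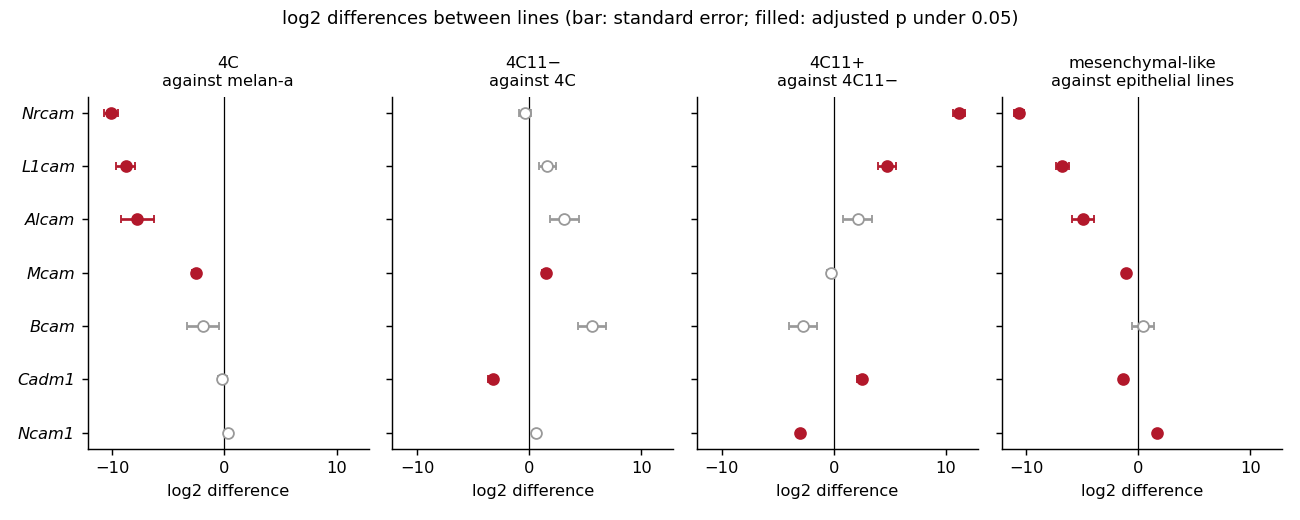
Differences in log2 CPM (x axis, with standard error) of the 7 members (y axis) in the 3 consecutive steps of the model and between phenotypes, with filled points at adjusted p under 0.05. Nrcam and L1cam lay at -10.12 and -8.84 in 4C against melan-a and at 11.18 and 4.78 in 4C11+ against 4C11- (fitted values, which are no bounds where a line has next to no reads), and Cadm1 and Ncam1 changed in opposite directions in the last step.

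Whether the phenotype difference was the same in the non-tumorigenic pair (4C minus melan-a) and in the tumorigenic pair (4C11- minus 4C11+) was tested by a contrast chosen after the values were seen. It was called for Mcam, Cadm1 and Ncam1, and 9.83% of all genes were called in it in either direction. For Mcam the phenotype difference was -2.56 in the non-tumorigenic and 0.27 in the tumorigenic pair (difference 2.83 ± 0.50, adjusted p = 0.00481). For Ncam1 it was 0.33 and 2.998 (difference 2.67 ± 0.39, adjusted p = 0.00151), and for Cadm1 it was -0.19 and -2.50 (difference -2.31 ± 0.57, adjusted p = 0.0271). In the pair of lines with the smaller phenotype difference, none of these 3 genes was called. L1cam came close to the threshold (4.06 ± 1.17, adjusted p = 0.0502), and the contrast was not called for Nrcam (-1.07 ± 0.82), Alcam (5.65 ± 1.94) or Bcam (4.68 ± 1.90).

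Mcam, Cadm1 and Ncam1 are neighbours on chromosome 9. In GRCm38 coordinates Mcam lies at chr9:44134469-44142727, Cadm1 at chr9:47530173-47857637 and Ncam1 at chr9:49502136-49798925, a span of 5.66 Mb with 72 genes that had a row. In 4C11+ against 4C11-, 47 of these 72 genes were lower and 2 higher, with a median difference of -1.33 beside 0.12 for all genes. Of all genes 15.4% were lower and 15.6% higher, shares that also stand behind the counts beside the stretch below. The 72 genes include the 3 members, with Cadm1 as 1 of the 2 higher genes and Ncam1 among the 47 lower ones. The same stretch had 44 lower genes when 4C11+ was set against 4C and 31 when it was set against melan-a (14.6% and 7.52% of all genes). From 4C to 4C11- 1 gene was lower and 3 were higher (0.406% and 1.26% of all genes). The lower gene was Cadm1, and Mcam was among the 3 higher ones. The stretch was examined after the values of the members were seen.

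The stretch was lower in each 4C11+ library than in each other library. The median over the 72 genes, relative to the mean of the other lines, was -1.18, -1.25 and -1.13 in the 4C11+ libraries, and it was between -0.22 and 0.35 in the other 8. The 22 genes within 5 Mb before Mcam had a median of -1.23 in 4C11+ against 4C11- (10 lower and 4 higher). The 32 genes within 5 Mb after Ncam1 had a median of 1.004 (2 lower and 17 higher). The direction of the medians thus differed on either side of Ncam1, the last member along the chromosome.

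Within the stretch the members took different places. Ncam1 (-2.998) was below the median of the 72 genes, and 10 of them had a lower difference. Mcam (-0.27) was above it, with 10 genes higher. Cadm1 rose by 2.50, and only 1 gene of the stretch had a higher difference. The copy number of the stretch was not measured here, and its part in the levels of the members was not tested.

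**Figure D3:**
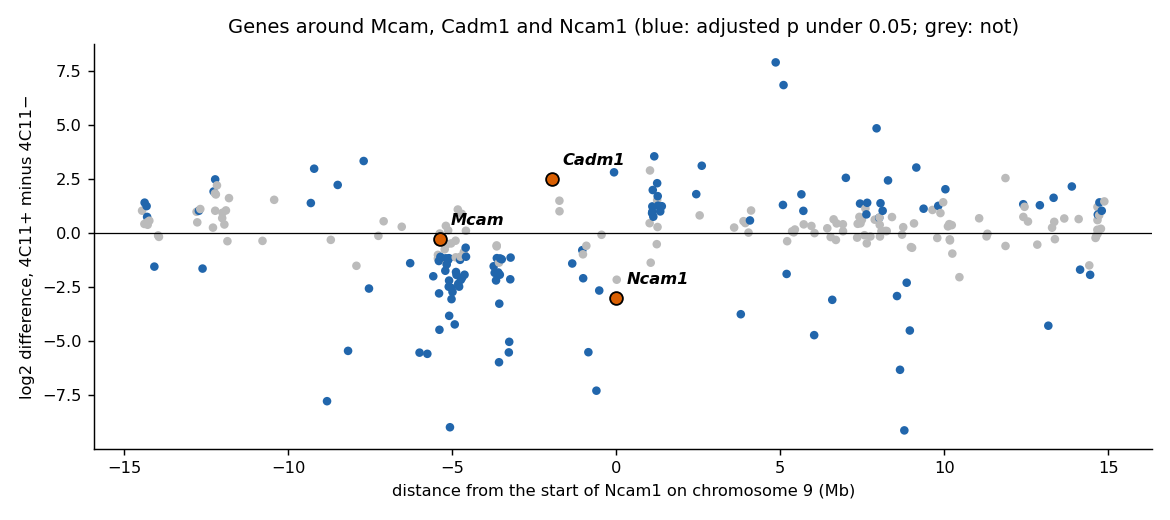
Log2 difference between 4C11+ and 4C11- (y axis) of genes on chromosome 9 by distance of their start from that of Ncam1 (x axis, Mb), with blue points at adjusted p under 0.05. From Mcam to Ncam1 most genes lay below 0 (median -1.33 over 72 genes), and Cadm1 was an exception at 2.50.

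The known extracellular partners of these molecules with a row (20 of 28) also differed between lines. From melan-a to 4C 3 were higher and 3 lower (7.64% and 7.55% of all genes). From 4C to 4C11- 1 was higher (Lama4) and 1 lower (Wnt5a), against 1.26% and 0.406% of all genes. From 4C11- to 4C11+ 3 were higher and 10 lower (15.6% and 15.4% of all genes). In the mesenchymal-like lines 9 were higher and 3 lower than in the epithelial lines (14.3% and 15.3% of all genes, which also stand behind the phenotype counts of the lists below). Their median phenotype difference was 0.59, beside -0.09 for all genes.

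Ligands of MCAM changed in different steps. Lama4, the laminin α4 chain, averaged 6.82 log2 CPM in melan-a, fell to -2.04 in 4C (6 reads in all) and was back at 4.47 in 4C11- and 7.15 in 4C11+. The 4C line thus had the lowest mean of both Lama4 and Mcam. Wnt5a, a secreted ligand of motile cells, averaged 4.14 in 4C and had 2 reads in all in 4C11- (adjusted p = 0.00282), and its melan-a libraries were far apart (mean 2.35, SD 3.68). Lgals3, which encodes galectin-3, was 8.78 in melan-a and fell from 6.22 in 4C11- to -1.43 (2 reads in all) in 4C11+ (adjusted p = 2.92e-06).

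Some partners of NCAM differed between lines as well. Gdnf, the glial cell line-derived growth factor, averaged 4.62 in 4C and 5.08 in 4C11-, and 0.33 in melan-a and -1.91 in 4C11+ (phenotype difference 5.64 ± 0.57, adjusted p = 1.62e-05). Its receptor subunit Gfra1 had 0 reads in every epithelial library and means of 2.36 in 4C and 0.97 in 4C11- (adjusted p = 6.73e-05). Fgfr1, a receptor tyrosine kinase that binds NCAM and L1 family proteins, was lower in 4C11+ than in 4C11- (3.06 against 7.47, difference -4.41, adjusted p = 1.97e-05) and than in melan-a (difference -4.00, adjusted p = 0.000309). The line with the lowest Ncam1 mean, 4C11+, had the lowest Fgfr1 mean as well. For Gdnf the melan-a libraries (-1.42 and 2.07) overlapped those of 4C11+ (up to -0.70). Gfra1 had 0 reads in melan-a too, where Ncam1 averaged 7.27. A link between Ncam1 and these partners was not tested. Itga9, an integrin chain that binds VCAM1 and tenascin, averaged -0.15 in melan-a (7 reads in all) and 5.40, 6.46 and 5.17 in 4C, 4C11- and 4C11+, and Lamb1, the laminin β1 chain, was lower in the mesenchymal-like lines (difference -3.84, adjusted p = 3.68e-05).

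**Figure D4:**
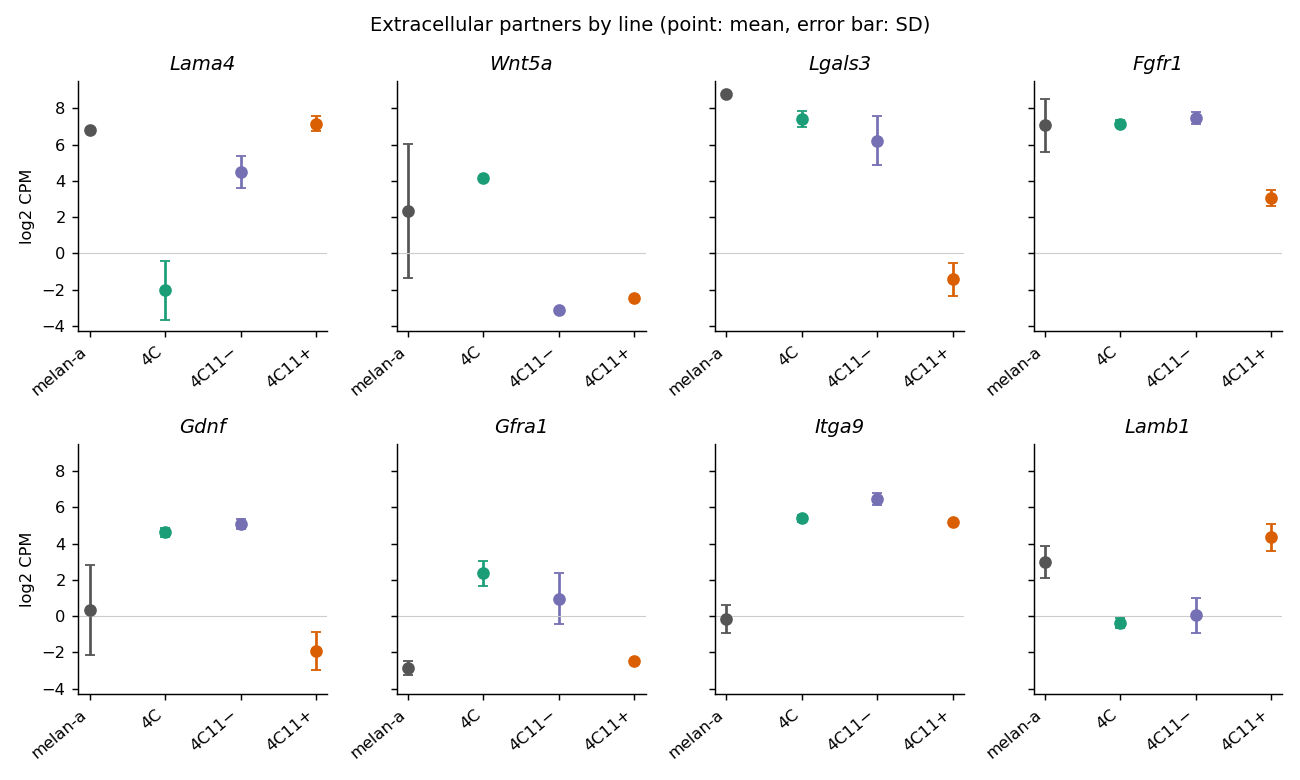
Mean level with SD (log2 CPM, y axis) of 8 extracellular partners in the 4 lines (x axis). Lama4 was lowest in 4C, Lgals3 and Fgfr1 were lowest in 4C11+, and Gdnf and Gfra1 were higher in 4C and 4C11- than in the epithelial lines.

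Cytoplasmic linkers and effectors of these molecules with a row (28 of 30) included 10 higher and 6 lower genes in the mesenchymal-like lines, with a median difference of 0.07. Pak1, a kinase downstream of Rac and of NCAM signalling, had 0 reads in every epithelial library and averaged 2.80 in 4C and 2.86 in 4C11- (adjusted p = 7.97e-07). Ank1, an erythrocyte-type ankyrin, was higher by 3.38 ± 0.46, with 5 reads in all in the epithelial lines. Fyn, a kinase that acts with NCAM, averaged 3.37 in 4C and 5.30 in 4C11- and was lower in the mesenchymal-like lines than in the epithelial lines (difference -2.15 ± 0.22, adjusted p = 1.71e-05). From 4C to 4C11- it was the only called gene of this list (1.93, adjusted p = 0.00639). From 4C11- to 4C11+ 5 genes were higher and 11 lower, against 15.6% and 15.4% of all genes. Among the lower ones was Epb41l3, a protein 4.1 family member that binds CADM1 (-3.57, adjusted p = 0.000594).

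Of the shedding proteases, their inhibitors and glycosyltransferases 14 of 17 had a row, and 4 were higher and 3 lower in the mesenchymal-like lines (median -0.17). Timp1, a metalloprotease inhibitor, had 0 reads in melan-a and averaged 5.18 in 4C (adjusted p = 1.22e-07). It averaged 4.83 in 4C11- and 3.75 in the epithelial 4C11+, and was thus higher than in melan-a in every derived line. Adam10, the sheddase of several members, was lower in the mesenchymal-like lines (difference -1.11 ± 0.29, adjusted p = 0.012), as was Psen2, a catalytic subunit of γ-secretase (-2.82 ± 0.32, adjusted p = 3.78e-05). Mmp2, a gelatinase, was lower in 4C11+ than in 4C11- (difference -3.81, adjusted p = 3.28e-05), and Mgat5, which builds the branched glycans bound by galectins, was higher (2.30, adjusted p = 3.04e-05).

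Other adhesion molecules of the superfamily with a row (24 of 53) were split, with 7 higher and 6 lower genes in the mesenchymal-like lines and a median difference of 0.18. Clmp, a junctional molecule, averaged 6.36 in 4C and 6.66 in 4C11- and had 4 reads in all in the epithelial libraries (adjusted p = 1.98e-08). Amigo2, a neuronal adhesion molecule, averaged 4.17 and 4.73 in these lines and had 1 read in all in the epithelial libraries. Sdk1, a synaptic adhesion molecule, had 0 reads in every mesenchymal-like library, as Nrcam had in 4C11-, and averaged 2.44 in melan-a and 4.29 in 4C11+. Emb (embigin) averaged 6.02 in 4C11+ and was low in all other lines, with 0.56 in melan-a (13 reads in all, 44.1-fold lower than 4C11+, adjusted p = 4.95e-05) and 5 reads in all in the mesenchymal-like libraries. None of the 24 genes was called by limma from 4C to 4C11-, where 7 had an unadjusted p under 0.05. Of all 14272 genes, 1.26% were called higher and 0.406% lower in this step, and 1926 had an unadjusted p under 0.05.

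The NF-kB list, relevant to Icam1 and Vcam1, had 20 of 23 genes with a row. In the mesenchymal-like lines 4 were higher and 5 lower, with a median of -0.06. Il1r1, the interleukin-1 receptor, was higher by 7.32 ± 0.50 (8 reads in all in the epithelial lines, adjusted p = 5.29e-07), the chemokine gene Ccl2 by 5.13 ± 0.31 and Birc3, an apoptosis inhibitor, by 3.71 ± 0.62. No gene of the list was called by limma from 4C to 4C11-, where 3 had an unadjusted p under 0.05 (1926 of all 14272 genes).

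For each member, the genes with the most similar pattern over the 11 libraries were sought among 11444 genes with a mean of at least 1 log2 CPM. Nrcam was closest to Car6, Prkcq and Cdh2 (Pearson r 0.995, 0.99 and 0.99), of which Cdh2 encodes N-cadherin. L1cam was closest to Sytl2 and Slc37a2 (0.99 and 0.98), and Alcam to Ralgapa2, Cers4 and Dhcr7 (0.96, 0.96 and 0.95). Mcam was closest to Fbxl4, Stard3nl and Rab3a (0.95, 0.93 and 0.93). Ncam1 was closest to Vdr, Usp28 and Ccdc84 (0.98 each), and Usp28 and Ccdc84 lie within the stretch from Mcam to Ncam1. Cadm1 was closest to Zbtb21, Synj1 and Xylt1 (0.91, 0.91 and 0.90) and Bcam to Npr2, Csrp1 and Adgrg1 (0.94, 0.94 and 0.89). Between members, Bcam and Cadm1 had a coefficient of -0.81, as had Nrcam and Ncam1. All coefficients rest on 4 lines and describe these libraries.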

How the data were processed

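Total RNA of cultured cells was depleted of ribosomal RNA and sequenced in pairs from a stranded library kit. Per the labels and the study's methods, the authors trimmed reads with Trimmomatic, aligned them to GRCm38 with STAR, counted genes with Rsubread on Ensembl release 90, dropped genes that did not reach 1 CPM in 4 or more libraries, and then used voom of limma. Whether counting used strand was not given in the sources used here. The deposited values are log2 CPM, with the same highest value in all 11 libraries and medians within 0.011, as quantile normalization would leave them. Distinct low values were read as successive read counts from 0, and the step at 40 reads gave each nominal depth. After such a normalization other steps give other depths, so that this is not a measured depth. Intervals use the nominal depth and are approximate. Intervals and floors (3 reads) cover counting error only.

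Samples were grouped by cell line from their titles. All 14272 genes (24 without a symbol) were fitted in limma 3.58.1 (R 4.3.3) with a mean per line, empirical Bayes moderation along a mean-variance trend, and two-sided p-values adjusted over all genes by Benjamini-Hochberg at a threshold of 0.05. The script was tested on simulated data. The alternatives were a further quantile normalization, shifted medians, a filter on a mean log2 value of at least 1, a replicate block, no trend, a robust fit, only the lines compared, and leaving out each library. Gene lists of other adhesion molecules, extracellular partners, cytoplasmic linkers, shedding proteases and glycosyltransferases, the NF-kB pathway and cell type markers were used for counts only, naming up to 4 called genes with the largest difference and no overlap of libraries for each list and comparison. Members and lists were chosen with earlier results of these data known. Positions came from GENCODE mouse release 21 and promoter windows from RefSeq (GRCm38.p6). Melan-a replicate 1, Icam1 and Vcam1 were not analysed here, and 1 gene among those most similar to the members is not reported here.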

Additional observations from a re-analysis of the deposited data

Results flagged for a closer look

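In 14 sets of 5 or 6 libraries, formed from the phenotypes of the 7 members, 3 had a library standing apart by Dixon's ratio. Each set mixes libraries of different lines, and the mesenchymal-like Nrcam set holds ties at 0 reads. The usual chance rate of the ratio thus does not apply to this count. L1cam in 4C11- replicate 1 was highest among the mesenchymal-like libraries (10 reads, ratio 0.678). Nrcam in 4C replicate 2 was highest among them (ratio 0.799), which rests on 2 reads. Nrcam in melan-a replicate 2 was lowest among the epithelial libraries (6.21 log2 CPM, ratio 0.743).

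The phenotype difference itself differed between the tumorigenic and the non-tumorigenic pair of lines for Mcam (2.83), Cadm1 (-2.31) and Ncam1 (2.67). The contrast was chosen after the values were seen. For Mcam the lower level was seen in 4C against melan-a, and for Cadm1 and Ncam1 the change was seen in 4C11- against 4C11+. Melan-a alone was cultured with PMA, and this and the line cannot be told apart.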

How the results depend on the processing

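Of the member values recomputed under the alternatives, 823 kept their direction and side of the threshold, 28 newly passed, 17 no longer passed and 7, none of them called with all libraries or in that run, changed sign. Leaving out each library in turn, the log2 difference ranged from -5.11 to 1.28 for Bcam, -0.071 to 0.74 for Ncam1 and -0.90 to 0.52 for Cadm1 in 4C against melan-a, from -2.27 to 4.12 for Bcam and -0.26 to 1.63 for Nrcam in 4C11+ against melan-a, from -0.62 to 0.096 for Nrcam in 4C11- against 4C, and from -1.18 to 2.02 for Bcam between phenotypes. The sign changed without a melan-a library, or without 4C replicate 2 for Nrcam in 4C11- against 4C. Members called in 4C11- against 4C went from 2 to 1 with the filter on a mean of at least 1 and without the trend (Mcam lost), and were 1 to 3 when each library was left out (3 without either melan-a library, Bcam gained). Those in 4C11+ against melan-a went from 2 to 1 without the trend (Mcam lost) and were 1 to 3 without single libraries (3 without melan-a replicate 2 or 4C11- replicate 1), and those in 4C11- against melan-a were 3 to 5 without single libraries (5 without melan-a replicate 2, Bcam and Ncam1 gained). Over all genes, 4C11- against 4C gave 238 calls, 125 with the filter, 143 with only the lines compared and as few as 93 without 1 library. For 4C11+ against melan-a it was 2270, 1446 with only the lines compared and as few as 1089 without 1 library, and for 4C11- against melan-a 1940 and 843. The cause of these changes was not tested.

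The replicate numbers did not pair the libraries: 8 of 15 same-numbered pairs correlated above 0.1 (-0.23 to 0.39), and 4 of 11 libraries correlated best with their own number. With the replicate block the members called were 4, 2, 4, 2, 4, 6 and 6, in the order 4C against melan-a, 4C11- against 4C, 4C11+ against 4C11-, 4C11+ against melan-a, 4C11- against melan-a, 4C11+ against 4C and phenotypes. The block added Alcam in 4C11- against melan-a (adjusted p = 0.0488) and Cadm1 in 4C11+ against 4C (adjusted p = 0.0386) and changed no other call of a member. A fit of only the lines compared could not be formed for the phenotypes, which use all lines. Levels of Nrcam and L1cam in 4C and 4C11- rest on few reads, and only bounds or wide, approximate intervals can be given.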
